A study of Mus musculus with 12 samples.

Results

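The miRNAs described here are the mature arms of miR-103 and miR-107, which are encoded within introns of pantothenate kinase genes. All names of these hairpins were taken from a table of 1652 mature miRNA names, which gave 5 members: miR-103-3p, miR-107-3p, miR-107-5p, miR-103-2-5p and miR-103-1-5p. Small RNA was sequenced from mouse kidney at day 0 (6 libraries) and day 8 (6 libraries), to look for miRNAs that change in the neonatal period and might regulate the mineralocorticoid receptor. Both ages were of WT genotype and untreated; strain, sex and litter were not given in the sources used here. The labels do not tie libraries to animals, so p-values measure only the spread between these samples, which may be technical.

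Pantothenate kinases catalyse the first, rate-controlling step of coenzyme A synthesis. In vertebrates their genes carry miR-103 and miR-107, whose guide strands are the 3p arms, the strands that are kept in Argonaute to find target mRNAs by their seed. In mice these miRNAs are known to lower insulin sensitivity in liver and adipose tissue, with caveolin-1, a partner of the insulin receptor, as a target. They are also known to repress Dicer, the enzyme that cuts miRNA hairpins, and miR-103 is a common reference miRNA in RT-qPCR.

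Each hairpin lay on the strand of its host gene, in intron 5 of the longest coding transcript (7 exons) and in no exon of any coding transcript that spans it (GENCODE M21, GRCm38). Mir103-1 lay in Pank3 at chr11:35782396-35782481 on the plus strand, Mir103-2 in Pank2 at chr2:131288052-131288137 on the plus strand, and Mir107 in Pank1 at chr19:34820687-34820773 on the minus strand. The hairpins are shown 5′ to 3′ (RefSeq, GRCm38.p6) with the mature arms in capitals, 5p first, because they show which arm can be assigned to a host gene and which cannot.
Mir103-1: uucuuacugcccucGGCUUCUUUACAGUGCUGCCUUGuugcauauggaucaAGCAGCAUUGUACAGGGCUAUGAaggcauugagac
Mir103-2: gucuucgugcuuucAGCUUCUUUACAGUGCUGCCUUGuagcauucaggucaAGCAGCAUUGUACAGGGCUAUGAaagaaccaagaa
Mir107: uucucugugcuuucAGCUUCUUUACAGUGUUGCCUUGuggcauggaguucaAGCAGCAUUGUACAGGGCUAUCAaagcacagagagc
Both Mir103 hairpins release the same 3p arm, so the reads of miR-103-3p sum the Pank2 and Pank3 loci. Over their 86 bases these hairpins matched at 69 positions.

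The mature arms follow with the seed, bases 2 to 8, in capitals, to show how little separates the members from each other.
miR-103-3p: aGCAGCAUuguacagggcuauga
miR-107-3p: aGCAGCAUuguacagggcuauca
miR-107-5p: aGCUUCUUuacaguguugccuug
miR-103-2-5p: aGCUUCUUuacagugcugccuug
miR-103-1-5p: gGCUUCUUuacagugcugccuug
Counted from the 5′ end, miR-103-3p and miR-107-3p differed by G22C alone, next to the last of 23 bases and far outside the seed. A read that ends before that base cannot be assigned to either name, and the rule for counting such reads was not given in the sources used here. The 5p arms shared a seed too: miR-103-1-5p differed from miR-103-2-5p by A1G, and miR-107-5p by C16U. No other of the 1409 table names with a RefSeq sequence carried either seed.

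The libraries held from 3372228 miRNA reads (day 0 replicate 6) to 11782109 (day 8 replicate 6), and day 8 replicate 3, with 5157265, was the shallowest of its age. Values are CPM, the reads of a name per 1000000 miRNA reads of its library. All 4 tubule miRNAs checked as kidney markers were present in every library. Their summed level ran from 10293 to 12804.5 CPM at day 0 and from 33440.1 to 36369 CPM at day 8. For 2 endothelial miRNAs it ran from 101241 to 115855 CPM and from 120604 to 146671 CPM. The liver miRNA miR-122-5p ran from 478 to 3284 CPM at day 0 and from 15.2 to 330.4 CPM at day 8. The summed level of 3 striated muscle miRNAs ran from 484 to 1980 CPM at day 0 and from 402 to 497 CPM at day 8. No name of these lists was at 0 in any library. The part of other tissue in the results below was not tested.

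The 3p arms held 99.98% of the reads of the 5 members, and 87.3% of all member reads were miR-103-3p. Over all libraries miR-103-3p stood at place 32 of the 564 names tested, between let-7d-5p and miR-30e-5p, and miR-107-3p at place 81, between miR-361-5p and miR-96-5p. Of the 5 members, 3 passed the filter of at least 1 CPM in at least 6 libraries. The remaining members, miR-103-2-5p and miR-103-1-5p, did not.

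Relative to the library total, both guide strands were slightly lower at day 8, and this direction belongs to that scaling. At day 0 miR-103-3p ran from 8133 CPM over a median of 9311 to 9831 CPM, and at day 8 from 5923 CPM over a median of 7801 to 9628 CPM. Day 8 replicates 1, 2, 5 and 6 lay below every day 0 library, while replicates 3 and 4 lay within the day 0 range. The means were 9178 ± 631 CPM at day 0 and 7749 ± 1296 CPM at day 8 (SD, n = 6 at each age), 1.18-fold lower at day 8. On the log2(CPM + 1) scale day 8 minus day 0 gave -0.26 (SE 0.103; limma adjusted p = 0.0389). CPM is a share of the library total, so this difference alone shows neither fewer cells that carry the miRNA nor less of it per cell. These also cannot be told apart in whole kidney.

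miR-107-3p, from Pank1, ran from 1205 CPM over a median of 1396 to 1531 CPM at day 0 and from 794 CPM over a median of 1033 to 1352 CPM at day 8. Here day 8 replicates 1, 2, 3 and 5 lay below every day 0 library, and replicates 4 and 6 overlapped with day 0. The means were 1378 ± 108 CPM and 1050 ± 209 CPM (SD, n = 6), 1.31-fold lower at day 8. The difference was -0.41 on the log2 scale (SE 0.121; limma adjusted p = 0.00775). Thus 2 of the 3 tested members were called, both lower, against a background of 64.7% of all tested names called in either direction, 16.5% higher and 48.2% lower. For no member were the ages free of overlap, while 45.9% of all tested names had no overlap.

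**Figure D1:**
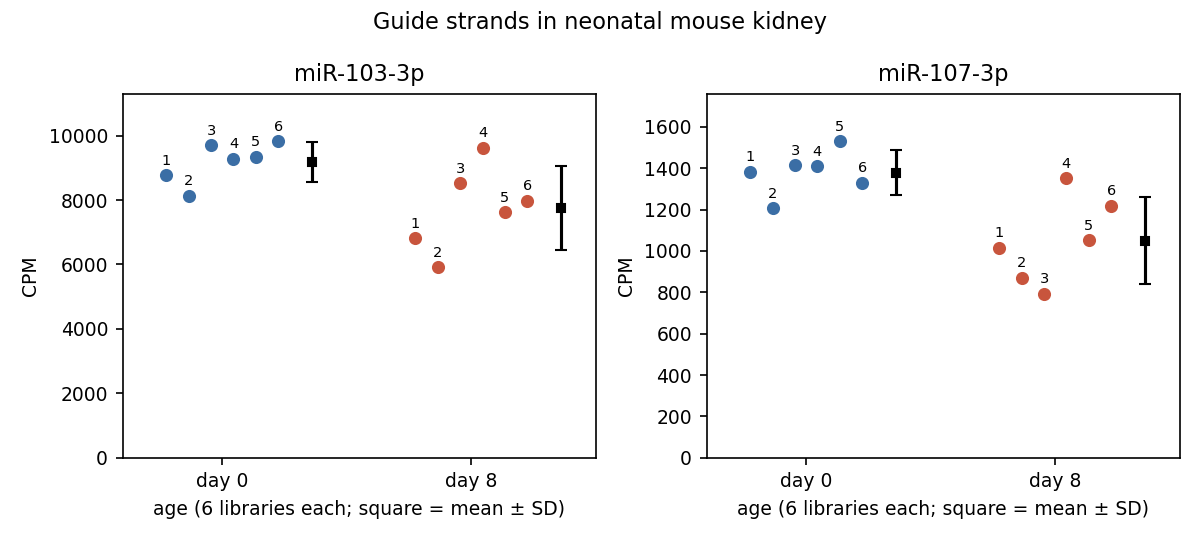
CPM of miR-103-3p (left) and miR-107-3p (right) in each library, by age; points are libraries with their replicate number, squares the mean with its SD (n = 6). Day 8 replicate 4 sits at 9628 CPM for miR-103-3p and 1352 CPM for miR-107-3p, inside the day 0 range of each, while day 8 replicate 3 is inside it for miR-103-3p only.

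The median log2 change of all 564 tested names was -0.34, and both guide strands lay near it. miR-103-3p lay 0.08 above that median and miR-107-3p lay -0.07 from it, and 54.6% and 47.5% of tested names had a lower change than each. When CPM was rescaled by TMM factors (trimmed mean of M values, which centre on the bulk of names), the median moved to -0.00. The change of miR-103-3p was then 0.13 (limma adjusted p = 0.286) and that of miR-107-3p was -0.02 (limma adjusted p = 0.888). Under this rescaling 64.5% of names were called, 30.3% higher and 34.2% lower at day 8. With upper quartile factors in edgeR the median rose to 0.19, and miR-103-3p was called higher at 0.32 (edgeR adjusted p = 0.00621). The direction of miR-103-3p thus turned with the scaling. With library totals its call ended when day 0 replicate 3, 4, 5 or 6, or day 8 replicate 1, 2 or 5, was left out, with log2 changes of -0.26 to -0.18 and limma adjusted p-values of up to 0.0865. The call of miR-107-3p held without each library in turn, from -0.49 to -0.34.

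**Figure D2:**
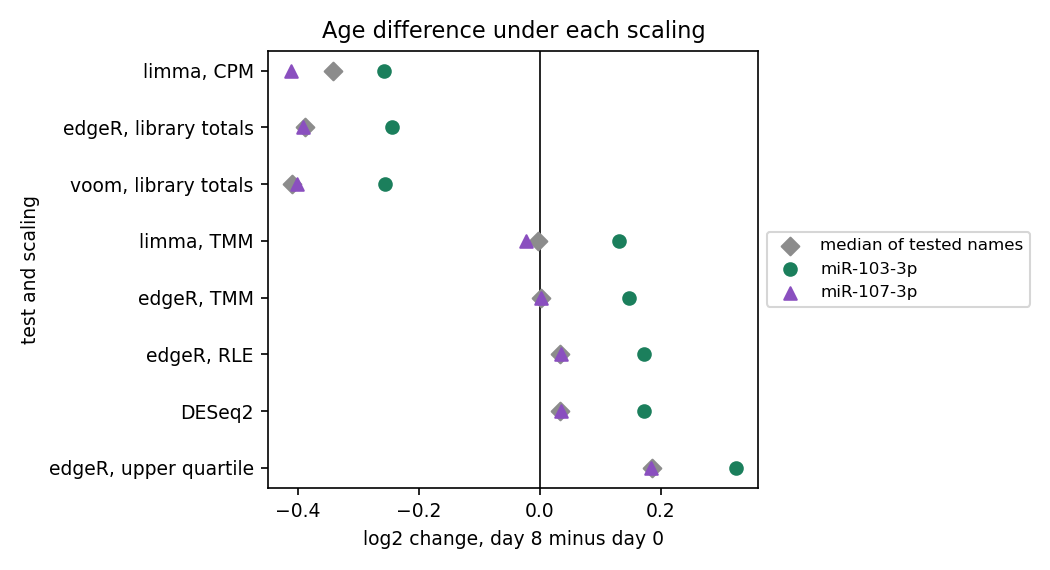
Log2 change from day 0 to day 8 (x axis) under 8 combinations of test and scaling (y axis) for miR-103-3p, miR-107-3p and the median of the 564 tested names. Both guide strands shift with the median, from -0.26 and -0.41 with library totals in limma to 0.32 and 0.18 with upper quartile factors in edgeR.

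Over all 12 libraries the spread of miR-103-3p was small. Its SD of log2(CPM + 1) was 0.22, the 37th smallest of the 215 names with a mean of at least 100 CPM, whose median SD was 0.40. With TMM factors its SD was 0.19, the 14th smallest. miR-107-3p had an SD of 0.30, the 68th smallest, and 0.23 with TMM factors, the 32nd smallest. Within an age the guide strands were not among the steadiest names. The within-age SD was 0.19 for miR-103-3p and 0.22 for miR-107-3p, against a median of 0.21.

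A ratio within a library does not depend on the scaling, apart from the 1 CPM added to each name, which weighs on low names. The ratio of miR-103-3p to miR-107-3p did not differ between the ages beyond its spread: the log2 ratio was 2.74 ± 0.0961 at day 0 and 2.89 ± 0.267 at day 8 (SD, n = 6), 0.15 higher, with an exact two-sided permutation p of 0.184. Adjusted over the 4 ratios tested, the p was 0.268, and the smallest unadjusted p that 924 assignments allow is 0.00216. In linear terms 6.66 reads of miR-103-3p stood beside each read of miR-107-3p at day 0 and 7.41 at day 8. In 11 libraries the ratio lay between 6.10 and 7.40, and in day 8 replicate 3 it was 10.7. Without that library the age difference of the log2 ratio was 0.05.

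Given as a share of both 3p arms, miR-107-3p made up 13.1 ± 0.752% at day 0 and 11.99 ± 1.75% at day 8 (SD, n = 6; exact two-sided permutation p = 0.180). Without day 8 replicate 3 the day 8 share was 12.7 ± 0.459%, with an exact permutation p of 0.357. In day 8 replicate 3 miR-107-3p was 8.52%, with 4094 reads beside 43942 of miR-103-3p (exact Clopper-Pearson 95% interval, counting error only, 8.27 to 8.78%). In the shallowest library, day 0 replicate 6, it was 11.9% (11.6 to 12.2%). These intervals leave out the spread between libraries. Day 8 replicate 3 had the lowest miR-107-3p of its age, at 794 CPM, and the second highest miR-103-3p, at 8520 CPM.

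**Figure D3:**
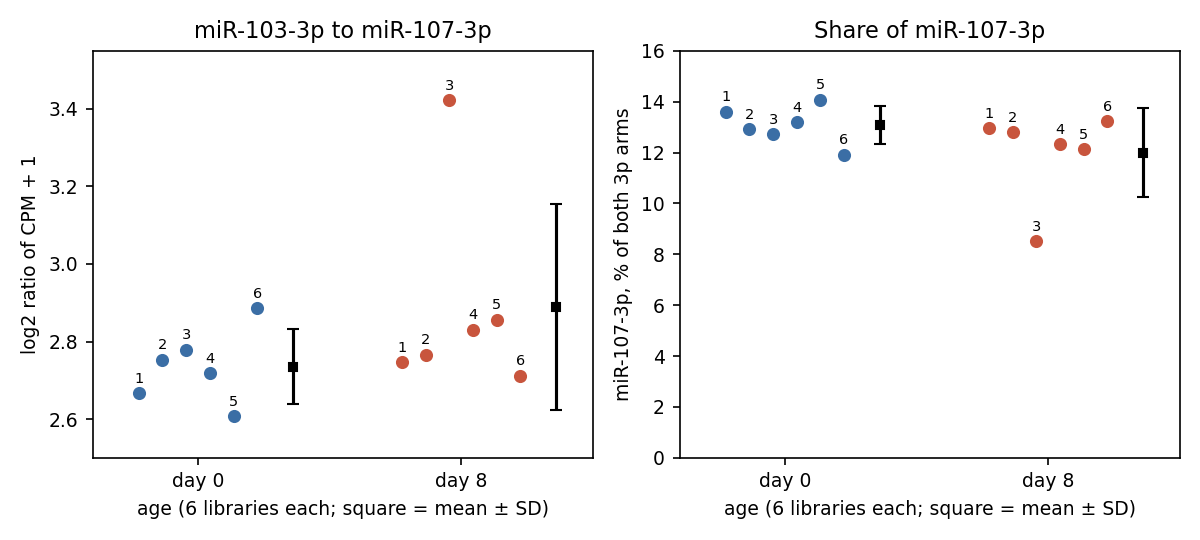
Log2 ratio of miR-103-3p to miR-107-3p (left) and the percentage of miR-107-3p in the sum of both (right) in each library, by age; squares are the mean with its SD (n = 6). Day 8 replicate 3 sits at 3.42 and 8.52%, apart from the other 11 libraries.

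To set this ratio beside similar ones, pairs of names that differ in 1 base were taken among names with a mean of at least 100 CPM. Of these 215 names, 189 had a sequence and could form a pair. Lengths could differ by at most 1 base, and only shared positions were compared. The choice was made after the values were seen and is given with no test. Among 15 such pairs the mean log2 ratio moved between the ages by 0.05 (miR-10a-5p to miR-10b-5p) to 0.67 (miR-196a-5p to miR-196b-5p, lower at day 8), and by 0.15 for miR-103-3p to miR-107-3p. In 4 of the pairs the ages did not overlap, and the guide strands of the Pank hairpins were not among them. The distance of day 8 replicate 3 from the mean of the other day 8 libraries was greatest for miR-103-3p to miR-107-3p, at 0.64. It was next greatest for let-7a-5p to let-7c-5p, which differ at base 19: that log2 ratio was -0.38 in day 8 replicate 3 and -0.00 to 0.16 in the other day 8 libraries. The next greatest were those of miR-29a-3p to miR-29c-3p (0.39, base 10), miR-30a-5p to miR-30e-5p (0.29, base 13) and miR-27a-3p to miR-27b-3p (0.26, base 19). Day 8 replicate 3 was the highest or lowest day 8 library in 9 of the 15 pairs. It passed the rule used below to mark a library far from its group in 2 of the 15. These were miR-103-3p to miR-107-3p, which is also counted there, and let-7a-5p to let-7c-5p. Replicate 3 was picked for its place in the first of these pairs, and some pairs share a name, such as let-7a-5p. Counts for the other day 8 libraries were not made, so the 9 cannot be weighed.

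**Figure D4:**
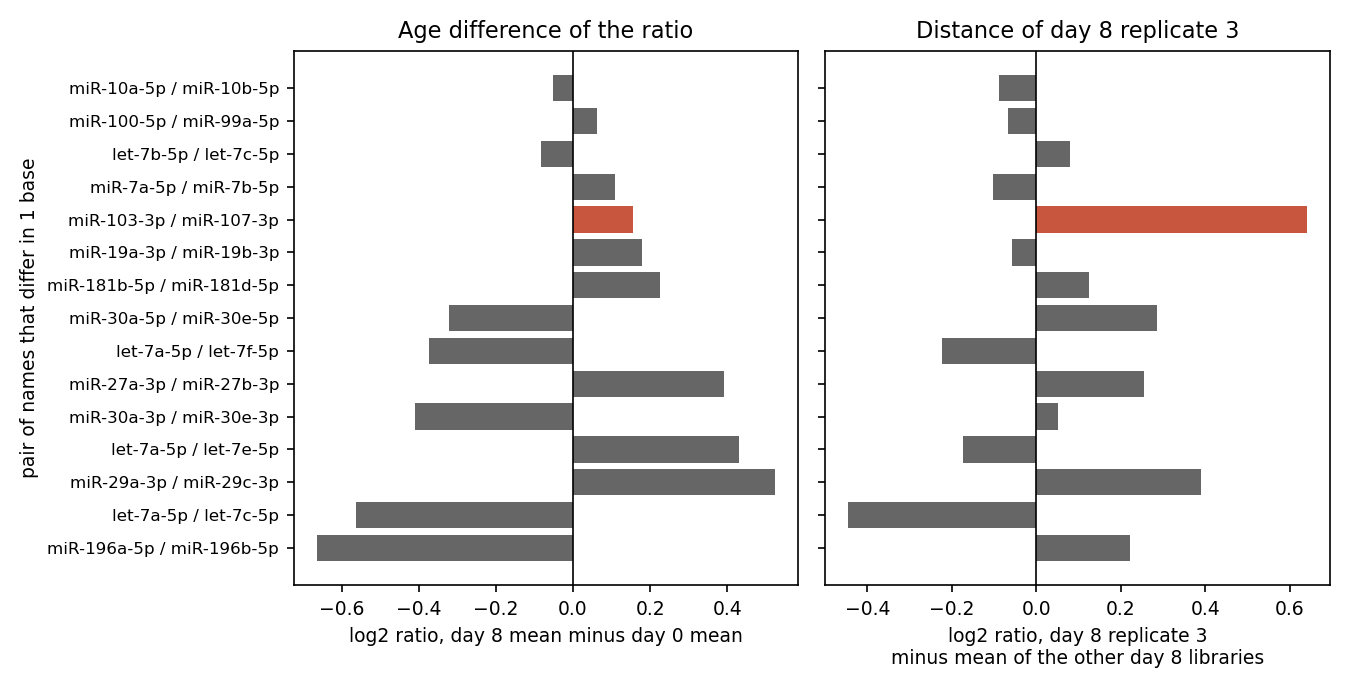
Age difference of the log2 ratio (left) and distance of day 8 replicate 3 from the mean of the other 5 day 8 libraries (right) for 15 pairs of miRNA names that differ in 1 base; the red bars are miR-103-3p to miR-107-3p. That pair has a small age difference of 0.15 and the longest bar for day 8 replicate 3, at 0.64.

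The passenger arms, which are mostly discarded after the hairpin is cut, were near the limit of detection. miR-107-5p, from Pank1, rested on 4 to 23 reads per library. It ran from 0.801 CPM over a median of 1.31 to 2.52 CPM at day 0 and from 1.19 CPM over a median of 1.41 to 4.07 CPM at day 8. The ages overlapped, and the highest library was day 8 replicate 3. The log2 change was 0.23 (SE 0.228; limma adjusted p = 0.387), and 0.05 without day 8 replicate 3, where the adjusted p was 0.802. With other scalings it was 0.46 (limma with TMM factors), 0.72 (edgeR, TMM), 0.75 (edgeR, RLE) and 0.76 (DESeq2), without a call. Upper quartile factors gave 0.88 (edgeR adjusted p = 0.0432).

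Set against its own guide strand, miR-107-5p had a log2 ratio of -9.18 ± 0.476 at day 0 and -8.54 ± 0.673 at day 8 (SD, n = 6), a difference of 0.64 with an exact two-sided permutation p of 0.0693 (0.268 adjusted over 4 ratios). Without day 8 replicate 3, at -7.29 the highest value of its age, the difference was 0.39. The pseudocount of 1 CPM is as large as the values of this arm, so the ratio is compressed and is not free of the scaling. With pseudocounts of 0.1 and 5 CPM the difference was 0.77 and 0.51.

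The arms that could tell the Pank2 and Pank3 loci apart gave few reads. miR-103-2-5p, from the Pank2 hairpin, had 48 reads over all libraries, from 0.237 to 1.20 CPM at day 0 and from 0.108 to 0.776 CPM at day 8, and was seen in every library. miR-103-1-5p, from the Pank3 hairpin, had 17 reads, was at 0 in 3 day 0 and 2 day 8 libraries, and reached 0.631 CPM at day 0 and 0.776 CPM at day 8. A count of 0 allows up to 3 reads, which is 0.257 to 0.890 CPM in those libraries. An age difference of either arm was not detectable at this depth, and no ratio with them was tested. The 65 reads of both arms stood beside 835640 reads of miR-103-3p, too few to compare the loci by age.

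**Figure D5:**
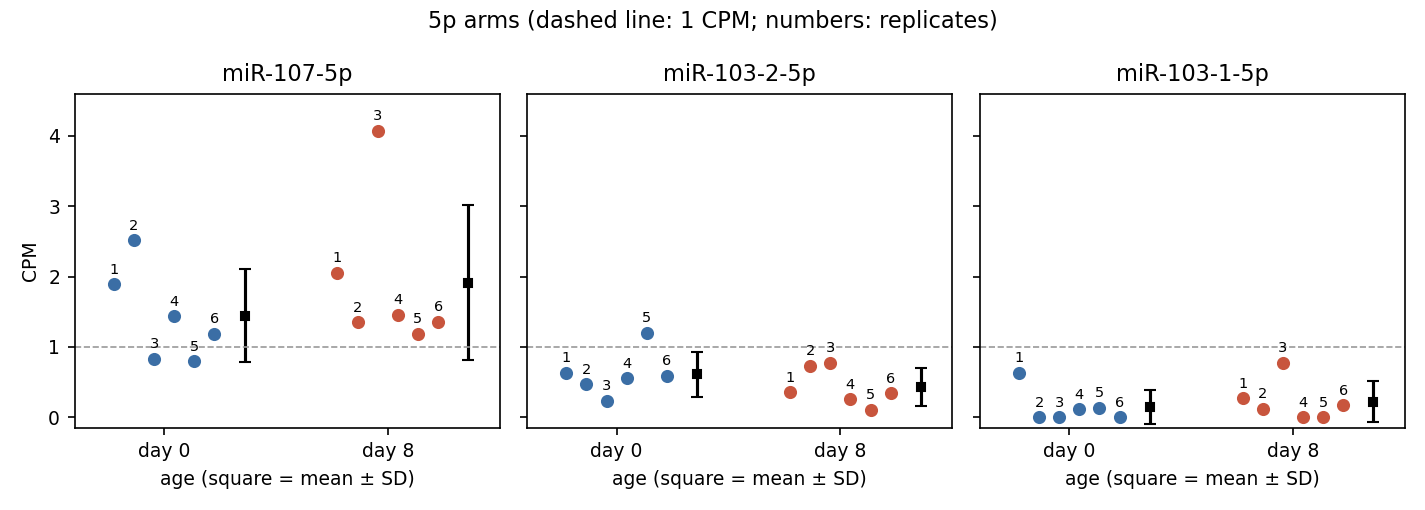
CPM of the 3 5p arms in each library, by age; points are libraries with their replicate number, squares the mean with its SD (n = 6), and the dashed line marks 1 CPM. For miR-107-5p day 8 replicate 3 reaches 4.07 CPM and every other library lies at or below 2.52 CPM; for the miR-103 5p arms the highest value is 1.20 CPM.

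The guide strands are kin to the miR-15/16 family, cell cycle regulators that carry the same 6 letters AGCAGC shifted by 1 base. These begin at base 1 of miR-103-3p and miR-107-3p and at base 2 of miR-16-5p, so that the seeds differ. miR-16-5p, the most abundant of them, and miR-503-5p, encoded on the X chromosome, are shown with their seeds in capitals.
miR-103-3p: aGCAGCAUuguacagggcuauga
miR-16-5p: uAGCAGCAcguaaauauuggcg
miR-503-5p: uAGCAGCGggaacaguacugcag
Against miR-16-5p neither guide strand differed between the ages beyond its spread, which does not show that they were equal. The log2 ratio of miR-103-3p to miR-16-5p was -3.13 ± 0.113 at day 0 and -3.13 ± 0.213 at day 8 (SD, n = 6; exact two-sided permutation p = 0.989). That of miR-107-3p to miR-16-5p was -5.86 ± 0.151 at day 0 and -6.02 ± 0.232 at day 8 (exact two-sided permutation p = 0.201), and neither passed after adjustment over 4 ratios (0.989 and 0.268).

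Of 9 names listed for the miR-15/16 family 8 were in the table and tested: 2 were higher, 4 lower and 2 not called, with a median log2 change of -0.11 against -0.34 for all names. This is 75% called, beside 64.7% of all tested names, 16.5% higher and 48.2% lower. TMM factors turned this to 4 higher and 2 lower, beside 30.3% and 34.2% of all names. miR-195a-5p rose by 1.35 and miR-497a-5p, from the same cluster, by 1.01, while miR-503-5p fell by 1.29 (limma adjusted p-values 1.1e-07, 2.1e-05 and 2.2e-07). miR-15b-5p (-0.47) and miR-16-5p (-0.26) were called lower, but with TMM factors they were at -0.08 and 0.13, not past the threshold. miR-15a-5p (0.23) and miR-322-5p (0.04) were not called, and with TMM factors were higher at 0.62 and 0.43. miR-497b, called lower at -0.71 and under 3 CPM, does not hold the shared letters; the other 7 split into 2 higher, 3 lower and a median of 0.04.

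Among 28 other miRNAs tied to insulin signalling or glucose handling, 10 were higher, 7 lower and 11 not called at day 8, with a median of 0.17 against -0.34 for all names. With library totals the share called in either direction was 60.7%, near the 64.7% of all tested names. The directions were not alike, since 16.5% of all tested names were higher and 48.2% lower. The likeness of the share called did not hold with other scalings. The list holds 8 let-7 names, which share a seed. With TMM factors 20 were higher and 5 lower, where 30.3% of all names were higher and 34.2% lower. The share called was then 89.3%, beside 64.5% of all names. With upper quartile factors in edgeR it was 82.1%, beside 368 of all 564 names. The largest rises were those of miR-802-5p (log2 change 2.54), miR-29a-3p (1.09) and miR-33-5p, hosted in the sterol regulator gene Srebf2 (0.83). The largest falls were those of the liver miRNA miR-122-5p (-3.91), miR-7a-5p of endocrine cells (-0.94) and let-7e-5p (-0.70). All 6 were past the limma threshold, with adjusted p-values from 1.5e-08 to 0.00249. The changes of the guide strands, -0.26 and -0.41, lay inside this range. Its ends are the extremes of the list, so this does not tell the guide strands from other names.

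By Pearson correlation of log2(CPM + 1) over the 12 libraries, the names most like miR-103-3p among 214 with a mean of at least 100 CPM were miR-361-3p (0.97), miR-351-5p (0.94), miR-615-3p (0.94), miR-674-3p (0.92) and miR-484 (0.90). These values are a description with no test, and share the library total and the age groups. miR-107-3p came 34th, at 0.72, and its correlation was 0.94 without day 8 replicate 3. With the age means subtracted, miR-191-5p (0.97), miR-351-5p (0.965), miR-361-3p (0.95), miR-99b-5p (0.93) and miR-339-5p (0.93) came first. The correlation of miR-107-3p was then 0.52, and 0.86 without day 8 replicate 3. That library stands apart in the ratio of the guide strands, so a rise without it follows from leaving it out.

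The names most like miR-107-3p were miR-128-3p (0.87), let-7a-5p (0.86), miR-335-5p, miR-532-5p and miR-210-3p (0.84 each). Without day 8 replicate 3 these stood, in the same order, at 0.88, 0.774, 0.745, 0.893 and 0.844. miR-103-3p, 38th at 0.72 over all libraries, was then at 0.944, above all 5. The 5 were picked with day 8 replicate 3 included, so the place of miR-103-3p among all names without it was not determined. That library stands apart in the ratio of the guide strands, so their correlation was bound to rise without it. Over all 12 libraries with the age means subtracted, the closest names were miR-20b-5p (0.88), miR-128-3p (0.71), let-7a-5p (0.685), miR-130b-3p (0.68) and let-7j (0.68). The fifth name thus stood at 0.68 for miR-107-3p and at 0.93 for miR-103-3p. With the age means subtracted and without day 8 replicate 3, miR-20b-5p was at 0.82 and miR-103-3p itself at 0.86. miR-128-3p was then at 0.735, let-7j at 0.66, miR-130b-3p at 0.59 and let-7a-5p at 0.515. The closest names here, too, were picked with that library included.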

How the data were processed

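Per the labels' protocols, total RNA went into a QIAseq miRNA Library Kit preparation. Aligner, build, miRBase release and use of molecular identifiers were not given in the sources used here. The authors deposited CPM per mature miRNA name, summing to 1000000 per library. Values were whole multiples of 1 read for 100.0% of entries above 0, within 0.001 of a read, so reads were recovered. No library was a copy of another (lowest chi-square per degree of freedom within an age, 59.9).

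Libraries were grouped by the age label and numbered 1 to 6 in the order of the series. The test was limma-trend (limma 3.58.1 under R 4.3.3) on log2(CPM + 1) for the 564 of 1652 names with at least 1 CPM in at least 6 libraries, with Benjamini-Hochberg adjustment at 0.05. CPM gives shares of the library, and the log2 change understates that of low names. Ratios within libraries were tested by exact permutation. edgeR 4.0.16 (quasi-likelihood) and DESeq2 1.42.0 on recovered reads, voom, other scalings, filters and pseudocounts, and leaving out each library were tried. The fits across all names were checked on simulated data.

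Named miRNAs are the members, names with a member's seed, the miR-15/16 list, the 3 largest called rises and falls of the insulin-linked list, neighbours in abundance, and the 5 names most correlated with each guide strand. Members and lists were chosen with earlier results of these data known.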

Additional observations from a re-analysis of the deposited data

Results flagged for a closer look

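In 20 sets of 6 libraries checked for a library far from its group, 6 were marked. Chance marks about 1 in 20 where sets are independent and values follow a normal curve. Here sets share values and some arms rest on few reads, so the 6 cannot be weighed against that rate. Of the 6 marked, 4 came from day 8 replicate 3: the log2 ratio of miR-103-3p to miR-107-3p (3.42), the share of miR-107-3p (8.52%), miR-107-5p (4.07 CPM, 21 reads) and miR-103-1-5p (0.776 CPM, 4 reads). The ratio and the share are the same measurement in different form. In that library the liver miRNA miR-122-5p was at 330.4 CPM, the highest at day 8, and the summed endothelial markers at 120604 CPM, the lowest at day 8, as were the striated muscle markers at 402 CPM. The nervous tissue and endocrine markers, 2 names each, were the highest at day 8, at 4480.1 and 232 CPM. Of the nervous tissue names miR-124-3p was at 0 in at least 1 day 8 library. The sum was nowhere below 3197.7 CPM at day 8, so in such a library it was all miR-9-5p. This sum does not by itself show nervous tissue. The tubule markers, at 34462 CPM, lay within the range of the other day 8 libraries. So did the epithelial, erythroid and leukocyte markers, at 41774, 412 and 3097 CPM. The part of these markers in the values above was not tested. At day 0, miR-103-1-5p stood out in replicate 1, at 0.631 CPM on 5 reads, and the log2 ratio of miR-103-3p to miR-16-5p in replicate 2, at -3.35.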

How the results depend on the processing

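The number of names called between the ages stayed within 1.5 times under every alternative run (346 to 379 without each library in turn), as did calls in the miR-15/16 list (6 to 7 without each library in turn, and 5 with the filter at 10 CPM). Of the 28 insulin-linked names 17 to 19 were called without each library in turn, beside 346 to 379 of all 564 tested names. With TMM factors and day 8 replicate 3 left out together, an alternative added after the data were seen, 27 of the 28 were called. Of all 564 tested names 388 were called under that alternative. For miR-103-3p the log2 change turned to 0.13 (limma with TMM factors), 0.15 (edgeR, TMM), 0.17 (edgeR with RLE, and DESeq2), 0.32 (edgeR, upper quartile) and 0.11 (TMM factors without day 8 replicate 3). With no filter it was -0.26 with a limma adjusted p of 0.0867. For miR-107-3p it was -0.023 (limma with TMM factors), 0.0013 (edgeR, TMM), 0.0352 (edgeR with RLE), 0.0353 (DESeq2), 0.18 (edgeR, upper quartile) and 0.0624 (TMM factors without day 8 replicate 3). miR-107-5p was past the threshold with upper quartile factors in edgeR, at 0.88, and was not tested with the filter at 10 CPM. These scalings moved the median of all tested names from -0.34 to between -0.05 and 0.19, and calls from 93 higher and 272 lower to 171 and 193 (limma with TMM factors) or 213 and 155 (edgeR, upper quartile); the cause was not tested.

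Without each library in turn the log2 changes ran from -0.32 to -0.18 for miR-103-3p, from -0.49 to -0.34 for miR-107-3p and from 0.05 to 0.34 for miR-107-5p. The age difference of the log2 ratio ran from 0.05 to 0.19 for miR-103-3p to miR-107-3p, from 0.39 to 0.79 for miR-107-5p to miR-107-3p, from -0.045 to 0.0528 for miR-103-3p to miR-16-5p (below 0 without day 0 replicate 2 or day 8 replicate 3, 4 or 5), and from -0.21 to -0.08 for miR-107-3p to miR-16-5p. The share of miR-107-3p differed by -1.32 to -0.38 percentage points. Both pseudocounts kept every result on its side of the threshold. No paired analysis was possible because the replicate numbers were given in the order of the series and pair no libraries. Depth limits the 5p arms, which rest on at most 23 reads per library.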
